A study of Mus musculus with 6 samples.

Results

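Enteroendocrine granule proteins and prohormone-processing enzymes were examined in epithelial cells isolated from mouse ileum, as 10 genes chosen by name out of 22274 genes in the deposited table: Chga, Chgb, Scg2, Scg3, Scg5, Pcsk1, Pcsk1n, Cpe, Cryba2 and Vwa5b2. All 10 were found by Ensembl ID, and 9 had enough counts to be tested. RNA was sequenced from 3 Ogt knockout libraries (Olfm4∆Ogt) and 3 control libraries (Olfm4Ctrl). The knockout mice carried floxed Ogt and Olfm4-CreER, a tamoxifen-inducible recombinase made from the locus of a crypt stem cell gene, and per the labels the ileal epithelium of these mice had no Ogt left at collection. The genotype of the controls is given as LoxP with no driver, and the labels do not say separately whether they received tamoxifen. Tamoxifen was started at 2 months of age, given on 3 days, and the ileum was collected on day 10. Ogt encodes O-GlcNAc transferase, which adds single sugar residues to nuclear and cytosolic proteins.

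Enteroendocrine cells are rare hormone-producing cells scattered through the gut epithelium. They store peptide hormones in dense-core granules, whose matrix is built from acidic proteins of the granin family. Hormone precursors are cut inside the maturing granule by prohormone convertases after pairs of basic residues, and a carboxypeptidase then trims the exposed basic residues. In the ileum this route yields, among others, glucagon-like peptides from proglucagon and peptide YY. Neurons of the gut wall use the same granule proteins. In bulk RNA, fewer enteroendocrine cells and less RNA per cell cannot be told apart.

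The libraries held between 14389429 and 18076486 estimated counts. Ogt itself stood at 48.5, 43.0 and 36.0 CPM in the knockout libraries, against 140, 127 and 128 CPM in the control libraries (CPM, counts relative to the library total after scaling by TMM factors). Ogt RNA was thus lower (log2 fold change -1.63 ± 0.13 SE, adjusted p = 0.00121) but not absent. The labels speak of the ileal epithelium, while these libraries also held RNA of fibroblast, smooth muscle and leukocyte markers. Counts per gene do not separate the floxed part from the rest, and the source of the remaining Ogt RNA was not tested. Epithelial markers were abundant, with Krt8, the highest of 11 in CPM, between 5229 and 5947 CPM in knockout and between 4539 and 6602 CPM in control libraries. Of these 11 markers 2 were called, both lower, 18.2% against 18.7% of all tested genes, with 4 above 0 and 7 below. DESeq2 called 3 lower, adding Epcam (-0.46, adjusted p = 0.036). Epcam stood at 2956, 2495 and 2112 CPM in knockout and 4022, 3384 and 3103 CPM in control libraries. It did not pass in the edgeR test (-0.475 ± 0.179, adjusted p = 0.102), and was picked after its values were seen. The ileal gene Slc10a2 (log2 fold change -1.35 ± 0.22, adjusted p = 0.00656) and the intestinal transcription factor Cdx2 (-0.53 ± 0.11, adjusted p = 0.0148) were lower in knockout libraries (edgeR quasi-likelihood test). The other ileal gene of the list, Fabp6, did not pass (-0.182 ± 0.155, adjusted p = 0.446) and was picked after its values were seen. Cdx2 lost its call without knockout 2, knockout 3 or control 3 (adjusted p up to 0.0584). The enteroendocrine factor Neurod1 was present at 4.70, 4.44 and 3.92 CPM in knockout and at 2.50, 3.15 and 1.77 CPM in control libraries, and was picked after its values were seen. Whether each library is its own animal is not stated, and the tests then speak only to variation among these 6 libraries, which may be technical.

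The upstream regions of 4 members are shown because these genes include the 2 whose groups of libraries did not overlap (Chga and Pcsk1) and the 3 that hold a complete cAMP response element (Chgb, Scg2 and Pcsk1), a binding sequence of the CREB family of transcription factors. Each line gives the 250 bases before the transcription start, 5′ to 3′, from RefSeq (build GRCm38.p6, older than the builds of the deposited table), with complete elements and their core TGACG, on either strand, in capitals.
Chga (chr12:102554691-102554940, + strand): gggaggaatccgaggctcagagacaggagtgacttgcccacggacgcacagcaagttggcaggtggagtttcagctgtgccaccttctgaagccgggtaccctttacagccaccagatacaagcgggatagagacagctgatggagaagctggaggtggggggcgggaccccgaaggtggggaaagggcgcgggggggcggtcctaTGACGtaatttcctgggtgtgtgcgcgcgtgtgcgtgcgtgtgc
Chgb (chr2:132781392-132781641, + strand): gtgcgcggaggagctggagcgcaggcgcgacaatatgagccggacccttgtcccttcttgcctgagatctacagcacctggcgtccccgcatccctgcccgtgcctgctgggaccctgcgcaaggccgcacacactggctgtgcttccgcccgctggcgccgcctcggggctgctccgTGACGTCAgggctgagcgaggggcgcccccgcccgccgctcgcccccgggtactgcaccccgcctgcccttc
Scg2 (chr1:79440027-79440276, - strand): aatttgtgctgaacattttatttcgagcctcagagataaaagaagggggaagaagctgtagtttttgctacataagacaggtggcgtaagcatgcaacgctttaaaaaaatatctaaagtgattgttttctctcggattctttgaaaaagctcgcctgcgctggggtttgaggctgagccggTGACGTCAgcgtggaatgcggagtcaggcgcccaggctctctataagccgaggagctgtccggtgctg
Pcsk1 (chr13:75089607-75089856, + strand): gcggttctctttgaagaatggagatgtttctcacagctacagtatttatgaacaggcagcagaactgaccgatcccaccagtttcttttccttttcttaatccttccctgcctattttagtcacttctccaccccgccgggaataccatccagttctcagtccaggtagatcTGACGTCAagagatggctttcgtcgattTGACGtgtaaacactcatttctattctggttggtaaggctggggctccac

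The complete element TGACGTCA, which reads the same on both strands, occurred in the windows of 3 of the 9 members found in the RefSeq table, against 1.5% of all 32851 windows and 2.4% of the 13849 windows of tested genes. It began 72 bases before the start in Chgb, 68 in Scg2 and 78 in Pcsk1. The core TGACG or its reverse complement CGTCA, which the complete element also contains, occurred in 7 of the 9, all except Pcsk1n and Cryba2, against 17.8% of all windows and 24.8% of those of tested genes. Chga held this core 44 bases before the start. Windows of both Chgb, at 72.8% G and C, and Pcsk1, at 46.8%, held the element. No member window held TATAAA or its reverse complement TTTATA, found in 12.4% of all windows and 7.1% of those of tested genes. The GC box GGGCGG or its reverse complement CCGCCC occurred in 5 of the 9, against 32.7% and 55.1%, and the E-box CANNTG in 6 of the 9, against 66.2% and 58.9%. Binding of any factor was not measured. Cpe had no entry.

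The 9 tested members did not stand out from all tested genes in the share called. Of the 9 tested members 1 fell and none rose, 11.1%, where 18.7% of all 14005 tested genes were called in either direction, 9.33% (1307 genes) higher and 9.37% (1312 genes) lower (threshold 0.05 on the Benjamini-Hochberg adjusted p of edgeR). At an unadjusted p under 0.05 there were 3, Pcsk1, Chga and Cpe, 33.3% of the members against 34.0% of all tested genes. The median log2 fold change was -0.09, against -0.05 over all tested genes, with 4 members above 0 and 5 below. These shares lie near or below the background.

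**Figure D1:**
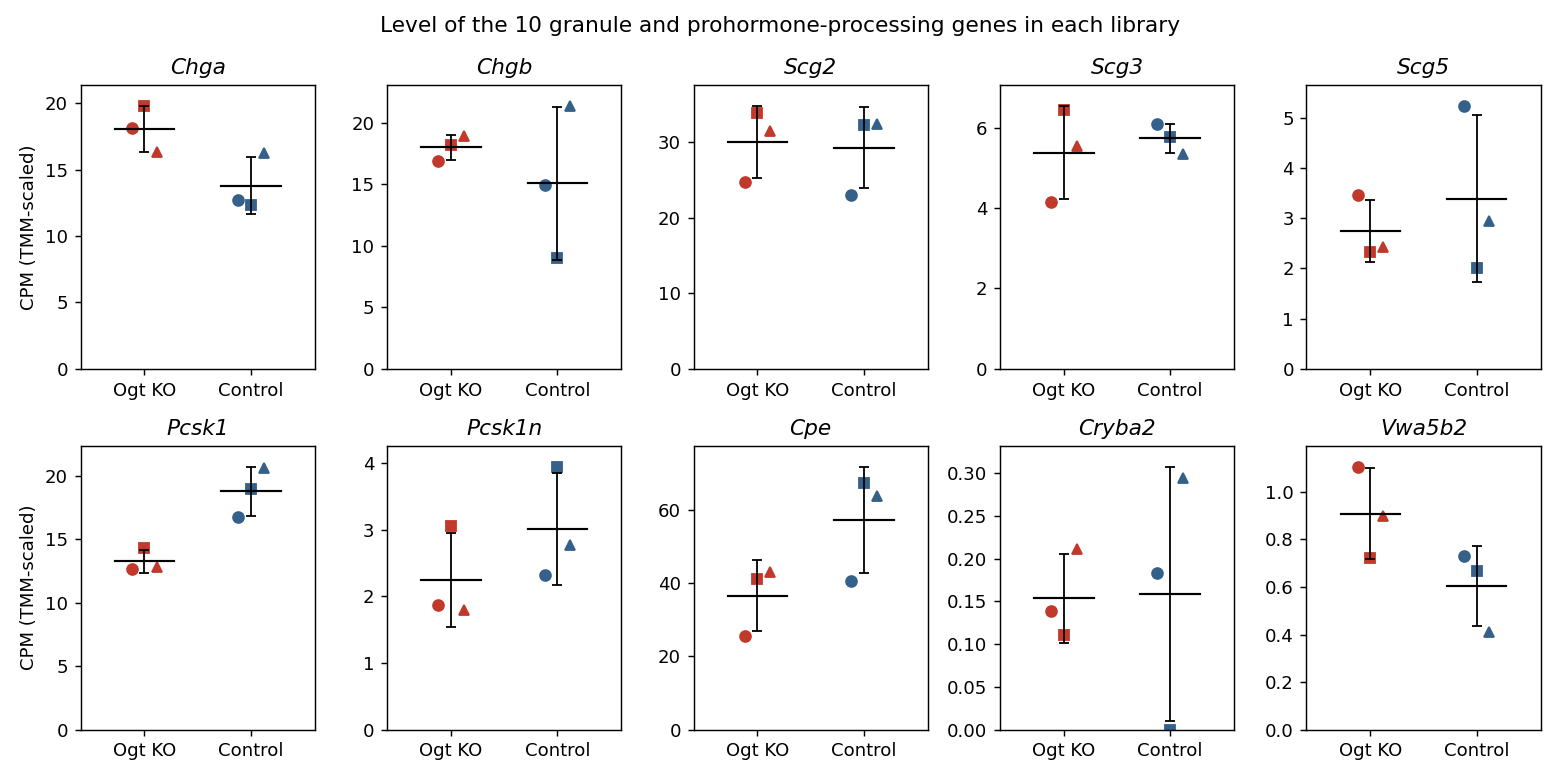
Level in CPM (y axis, from 0, own scale per gene) of each of the 10 genes in the 3 Ogt knockout and 3 control libraries. Circles, squares and triangles are replicates 1, 2 and 3, and bars are the mean ± SD. Pcsk1 is below every control library in all 3 knockout libraries and Chga above, and the other 8 genes overlap between groups.

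Pcsk1 encodes prohormone convertase 1/3, the endoprotease that releases glucagon-like peptides from proglucagon. It stood at 12.7, 14.3 and 12.8 CPM in knockout libraries 1 to 3, against 16.7, 19.0 and 20.6 CPM in control libraries 1 to 3. Every knockout library was below every control library. Pcsk1 fell to 0.707-fold of control (95% interval 0.566 to 0.883; log2 fold change -0.50 ± 0.14, adjusted p = 0.0417), and groups did not overlap for 2 of the 9 members, 22.2% against 39.8% of all tested genes. The call rested on most libraries together: the adjusted p was 0.109, 0.0817 and 0.133 without knockout 1, 2 or 3, 0.112 and 0.168 without control 2 or 3, and 0.0332 without control 1. Scaling by library size alone shifted the median of all genes to 0.09 (2045 genes higher and 859 lower). Pcsk1 then had a log2 fold change of -0.36 (adjusted p = 0.107). Relative to the median it was at -0.45 under either scaling. This equality was nearly fixed in advance, because rescaling moves a gene and the median together, and it does not bear on the call.

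Pcsk1n encodes proSAAS, a granin-like protein that inhibits this convertase. It was low, at 1.87, 3.06 and 1.80 CPM in knockout and 2.31, 3.94 and 2.77 CPM in control libraries. The second library was the highest of both groups, the groups overlapped, and the difference did not pass the test (log2 fold change -0.42 ± 0.34, adjusted p = 0.416). Within a library, the FPKM of Pcsk1 (the deposited level per transcript length and depth) was 2.93, 2.03 and 3.10 times that of Pcsk1n in knockout libraries, against 3.16, 2.10 and 3.23 times in control libraries. The ratio of convertase to inhibitor thus varied more between replicates than between groups.

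Cpe encodes carboxypeptidase E, which removes the basic residues left after convertase cleavage. It had the highest level of the members on both the CPM and the FPKM scale, at 25.5, 41.1 and 43.0 CPM in knockout libraries, against 40.4, 67.1 and 63.8 CPM in control libraries. Library 1 was the lowest of both groups, and control 1 lay below knockouts 2 and 3. The fold of 0.641 (95% interval 0.423 to 0.973; log2 fold change -0.64 ± 0.26) was the largest in size among the decreases of the members but did not pass the test (adjusted p = 0.124). It did in 2 of 18 alternatives, without control 1 (-0.79, adjusted p = 0.0488) and with the replicate number as a block (-0.65, adjusted p = 0.00679).

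Scg5 encodes 7B2, the chaperone and inhibitor of the related convertase Pcsk2. It stood at 3.46, 2.33 and 2.43 CPM in knockout and 5.24, 2.00 and 2.94 CPM in control libraries. Control 1 was the highest of all 6, the groups overlapped, and the sign depended on it: the log2 fold change was -0.31 ± 0.38 (adjusted p = 0.606) with it and 0.19 without it.

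Chga encodes chromogranin A, the granin most used as a general marker of enteroendocrine cells. It stood at 18.1, 19.8 and 16.4 CPM in knockout libraries, against 12.7, 12.4 and 16.2 CPM in control libraries. All knockout libraries were higher, though knockout 3 and control 3 nearly met. The fold of 1.31 (95% interval 1.02 to 1.68, not adjusted for the number of genes; log2 fold change 0.39 ± 0.16) did not pass the test (adjusted p = 0.123). With library size alone Chga was called higher (0.53, adjusted p = 0.0477). Relative to the median of all genes its change was 0.44 under both scalings. Rescaling moves a gene and the median together, so this equality was nearly fixed in advance and does not bear on the call.

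Chgb encodes chromogranin B, a second granule matrix protein. Its knockout libraries were close together, at 16.9, 18.2 and 18.9 CPM, while the control libraries spread over 14.9, 8.97 and 21.4 CPM and enclosed them. The log2 fold change of 0.25 ± 0.28 did not pass the test (adjusted p = 0.564). The FPKM of Chga was 1.56, 1.58 and 1.26 times that of Chgb in knockout libraries, against 1.24, 2.01 and 1.11 times in control libraries, with control 2 the highest.

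Scg2 encodes secretogranin II, the precursor of secretoneurin. It was the member closest to no change, at 24.7, 33.8 and 31.5 CPM in knockout and 23.0, 32.3 and 32.4 CPM in control libraries. Library 1 was the lowest in both groups, and the 95% interval of the fold ran from 0.774 to 1.37 (log2 fold change 0.04 ± 0.18, adjusted p = 0.900). Scg3 encodes secretogranin III, which binds chromogranin A at the granule membrane. Its values were 4.15, 6.44 and 5.55 CPM in knockout and 6.09, 5.76 and 5.36 CPM in control libraries, and both the lowest and the highest library were knockouts (-0.09 ± 0.23, adjusted p = 0.812; 0.05 with library size alone).

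Cryba2, a member of the beta-crystallin family transcribed in enteroendocrine cells, had 2, 2 and 4 counts in knockout and 3, 0 and 5 counts in control libraries. A count of 3 corresponds to between 0.159 and 0.207 CPM in these libraries, so Cryba2 was at or near the limit of detection in both groups and was not tested. Vwa5b2, which encodes a protein with a von Willebrand factor A domain, had 16, 13 and 17 counts in knockout and 12, 11 and 7 counts in control libraries. These are 1.11, 0.722 and 0.899 CPM in knockout and 0.731, 0.667 and 0.412 CPM in control libraries, which overlapped in 1 pair. The fold of 1.49 had a 95% interval from 0.779 to 2.87 (adjusted p = 0.353), which takes in a 2-fold rise at this depth. On the FPKM scale Vwa5b2 was at 0.28, 0.17 and 0.32 in knockout and 0.16, 0.26 and 0.26 in control libraries.

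**Figure D2:**
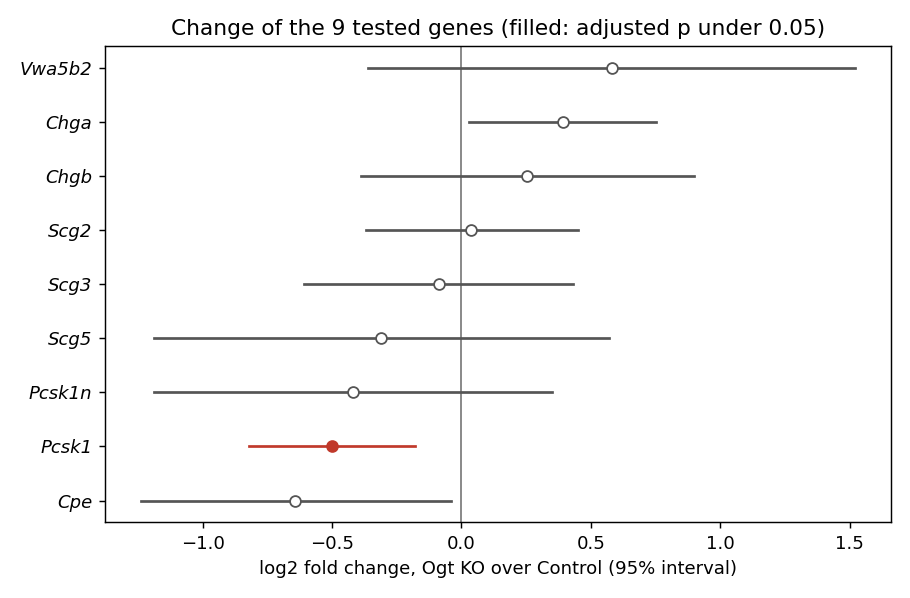
Log2 fold change of Ogt knockout over control (x axis) for the 9 tested genes, with 95% intervals from the edgeR fit that are not adjusted for the number of genes. Pcsk1, at -0.50, is filled because its adjusted p was under 0.05, and the interval of Cpe, from -1.24 to -0.04, also lies below 0.

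Per transcript length, the order of mean FPKM was the same in both groups: Cpe, Scg2, Chga, Chgb, Pcsk1, Scg3, Scg5, Pcsk1n, Vwa5b2, Cryba2. Mean FPKM ran over 18.2, 13.3 and 10.1 in knockout libraries for the first 3 genes, against 25.6, 11.6 and 6.97 in control libraries. The library ranges of 5 of the 9 neighbouring pairs overlapped in each group. In knockout libraries Cpe and Scg2 overlapped (lowest Cpe 12.1 FPKM, highest Scg2 15.1 FPKM), whereas in control libraries they did not (18.7 and 12.7 FPKM). Chga and Chgb were apart in knockout libraries (lowest Chga 9.43 FPKM, highest Chgb 7.51 FPKM) and overlapped in control libraries (6.20 and 7.33 FPKM). Scg3 and Scg5 overlapped in both groups, as did Vwa5b2 and Cryba2.

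Of 3 ratios between members, 1 did not overlap between the groups. The FPKM of Pcsk1 divided by that of Chga was 0.261, 0.271 and 0.293 in knockout libraries, against 0.492, 0.573 and 0.474 in control libraries. The means were 0.275 ± 0.0164 in knockout and 0.513 ± 0.0528 in control libraries (SD, n = 3 each). All 3 knockout libraries were lower than all 3 control libraries. This was fixed in advance, because every knockout library was lower in Pcsk1 and higher in Chga than every control library. The ratio thus adds nothing to the values of these genes, although a ratio within a library does not depend on how libraries are scaled. The ratio is given as a description without a test, since both genes were known to lie apart. The summed CPM of the 10 members was 108.5, 139.9 and 133.5 in knockout and 122.4, 152.1 and 166.2 in control libraries, and overlapped.

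**Figure D3:**
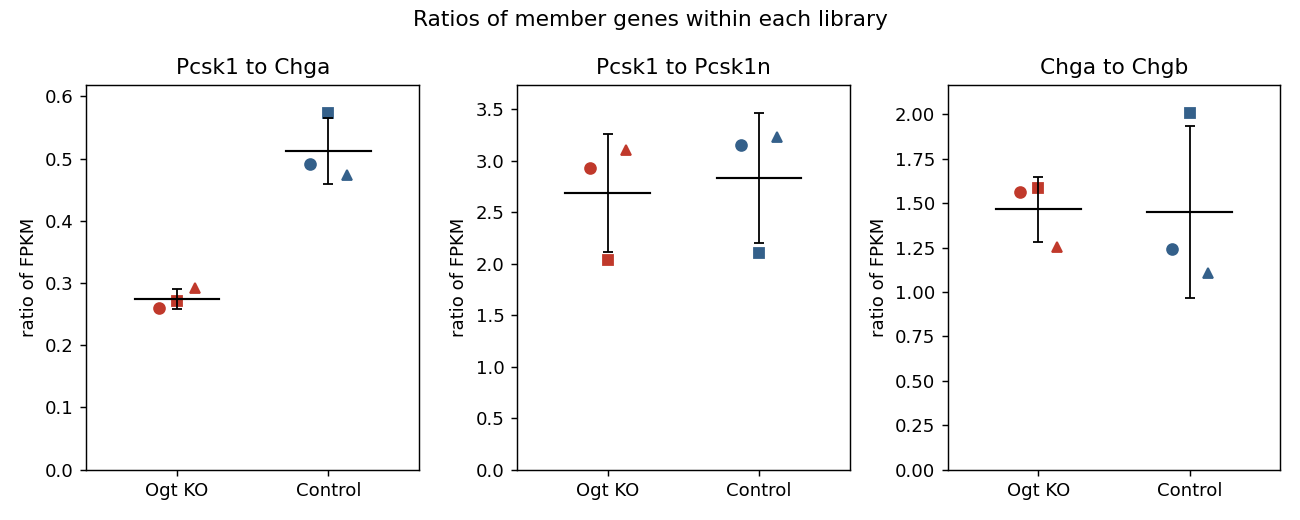
Ratio of FPKM values of 2 member genes (y axis, from 0) within each Ogt knockout and control library, for Pcsk1 to Chga, Pcsk1 to Pcsk1n and Chga to Chgb. Circles, squares and triangles are replicates 1, 2 and 3, and bars are the mean ± SD. Pcsk1 to Chga lies between 0.261 and 0.293 in knockout libraries and between 0.474 and 0.573 in control libraries, and the other 2 ratios overlap.

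Among 14 other processing and modifying enzymes, 13 were tested and none passed in either direction at an adjusted p under 0.05. Of all tested genes 18.7% passed. At an unadjusted p under 0.05 there were 3, DESeq2 called 2 lower, and the median log2 fold change was -0.26. Cpd, a carboxypeptidase of the trans-Golgi network and the highest of them in CPM, was at -0.19 ± 0.13. Pcsk2, the second granule convertase, stood at 1.04, 1.83 and 2.96 CPM in knockout and 1.34, 3.27 and 3.30 CPM in control libraries (adjusted p = 0.568). Pam, which amidates peptide hormones, stood at 27.7, 35.1 and 34.8 CPM in knockout and 30.7, 61.4 and 65.8 CPM in control libraries (-0.69 ± 0.28, adjusted p = 0.129; adjusted p = 0.00415 without control 1). Like Cpe, Pam was lowest in library 1 of both groups. Pam and Pcsk2 were picked after their values were seen.

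Of 30 genes of granule membranes, transport and exocytosis 29 were tested, 1 rose and none fell in the edgeR test (median -0.07). That is 3.45%, against 18.7% of all tested genes. The riser was Stx1a, a syntaxin of the fusion complex, at 4.91, 5.61 and 4.55 CPM in knockout and 2.25, 2.30 and 2.83 CPM in control libraries. Its log2 fold change was 1.03 ± 0.23 (adjusted p = 0.0210), and its adjusted p was up to 0.0836 without knockout 2, knockout 3 or control 2. Cyb561, the gene of this list highest in CPM and an electron carrier of granule membranes, was at 0.24 ± 0.13. DESeq2 called 3 higher, Stx1a with the calcium sensor Scgn (adjusted p = 0.0199) and the monoamine transporter Slc18a1 (adjusted p = 0.0260), and these 3 were also called with library size alone. With the replicate number as a block Stx1a and Scgn were called higher and Rab3c, a small GTPase of vesicles, lower (adjusted p = 0.0440). Scgn, Slc18a1 and Rab3c were picked after their values were seen. By the number of genes, 13 of the 29 were above 0 and 16 below.

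Hormone precursors are the cargo of these granules. Of 15 genes for hormones and serotonin synthesis 13 were tested, and 3 rose and none fell in the edgeR test. That is 23.1%, against 18.7% of all tested genes called in either direction and 9.33% called higher. Of the 13, 11 were above 0 (median 0.54), where 6474 of all 14005 tested genes were. DESeq2 called 5 higher and 1 lower, adding Gcg, Pyy (peptide YY, adjusted p = 0.0175) and, as the lower one, Tac1, the precursor of substance P (-1.19, adjusted p = 0.0197). Tac1 was at -1.21 ± 0.37 (adjusted p = 0.0563) in the edgeR test, and was called lower also by limma voom (adjusted p = 0.0455) and with the replicate block (adjusted p = 0.0461). Ghrl (ghrelin), Ddc (aromatic amino acid decarboxylase, also made by enterocytes) and Sct (secretin) rose. Their log2 fold changes were 2.91 ± 0.53, 0.48 ± 0.12 and 0.74 ± 0.21 (adjusted p = 0.0105, 0.0281 and 0.0453). Ghrl stood at 5.67, 6.78 and 7.04 CPM in knockout and 0.183, 1.46 and 0.942 CPM in control libraries. A count of 3 in control 1 corresponds to 0.183 CPM, so the size of the Ghrl change rests on few control counts. Ddc lost its call when knockout 1, 2 or 3 or control 3 was left out (adjusted p up to 0.0982). Sct lost its call when any library except control 1 was left out (up to 0.141). Gcg, which encodes proglucagon, a substrate of the Pcsk1 convertase, stood at 54.3, 32.2 and 33.8 CPM in knockout and 31.1, 17.2 and 22.2 CPM in control libraries and did not pass (0.77 ± 0.28, adjusted p = 0.0940). It was called higher by DESeq2 (0.79, adjusted p = 0.0265), with the replicate block (0.77, adjusted p = 0.00715), without control 1 (1.07, adjusted p = 0.0298) and by limma on log2(FPKM + 0.1) of genes at 1 FPKM in 3 libraries (0.91, adjusted p = 0.0463). Gcg, Pyy and Tac1 were picked after their values were seen. Nts, the highest precursor in CPM, encodes neurotensin and was at -0.49 ± 0.23. Of 19 enteroendocrine transcription factors 12 were tested and none was called, against 18.7% of all tested genes. Their median was 0.12, with Mlxipl, the highest in CPM, at 0.08 ± 0.14. At an unadjusted p under 0.05 there were 2, and DESeq2 called 0. With library size alone 1 was called, Neurod1 (0.95, adjusted p = 0.0460; 0.81 ± 0.28, adjusted p = 0.0776 as reported). Neurod1 was also called higher by limma on log2(FPKM + 0.1) and log2(FPKM + 0.01) of genes at 1 FPKM in 3 libraries (adjusted p = 0.0445 and 0.0469). Only 5 of the factors were tested in those settings. The difference between these lists and the granule genes was not tested.

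**Figure D4:**
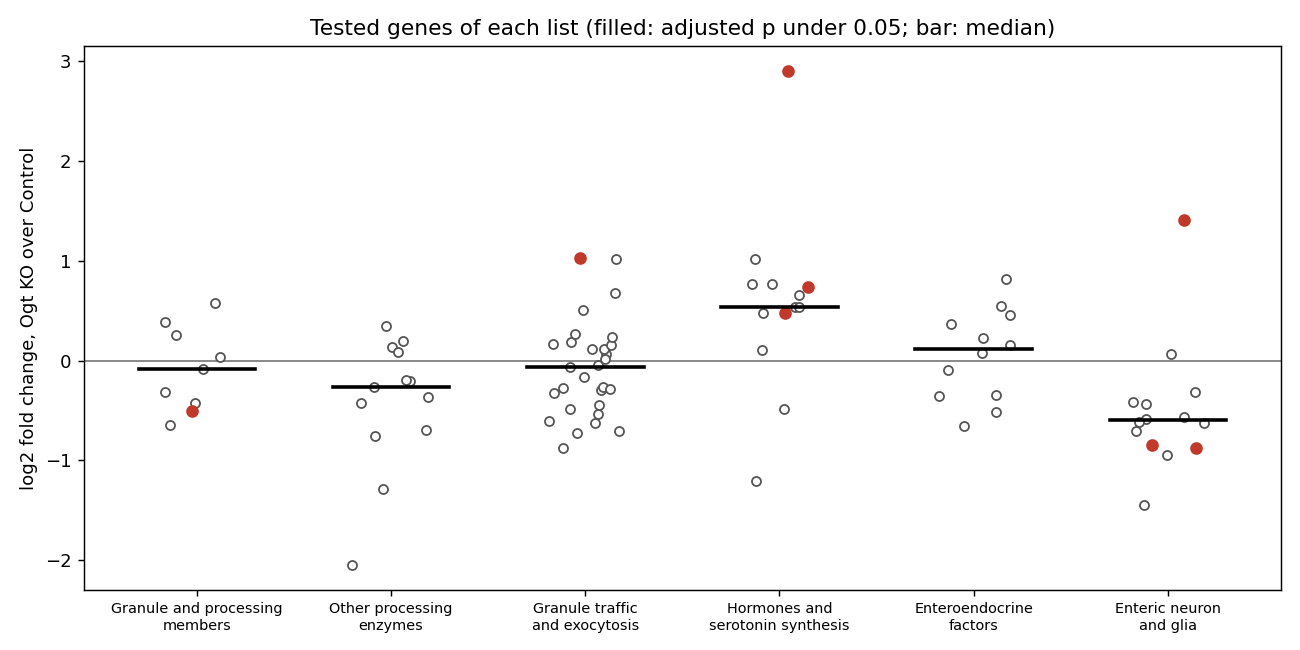
Log2 fold change of Ogt knockout over control (y axis) of each tested gene in 6 lists, from left to right the granule and processing members, other processing enzymes, granule traffic genes, hormones, enteroendocrine factors and neural markers. Filled points passed the test and bars are medians, which lie at -0.09, -0.26, -0.07, 0.54, 0.12 and -0.60.

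Among the 62 tested genes of these other lists with a mean of at least 1 CPM, those whose profile over the 6 libraries was closest to Chga were Pcsk5, Insm1 and Qpctl. Their root mean square differences in centred log2(CPM + 0.5) were 0.126, 0.166 and 0.183. The closest to Pcsk1 were Vamp2, Rph3al and St18, at 0.130, 0.144 and 0.168. The members Chga and Pcsk1 differed from each other by 0.445 on this measure, and Chga was closest among the members to Scg2 (0.272) and Pcsk1 to Pcsk1n (0.238).

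Neurons also make granule proteins. Of 15 enteric neuron and glia markers 14 were tested, 2 fell and 1 rose, 21.4% against 18.7% of all tested genes, with a median of -0.60. Their summed level was 23.6, 35.5 and 30.1 CPM in knockout and 38.5, 55.5 and 49.0 CPM in control libraries, without overlap. Ret alone held 5.74, 7.89 and 6.08 CPM of these sums in knockout and 12.7, 12.0 and 11.6 CPM in control libraries. Without Ret the sums overlapped. By gene, 5 of the 14 did not overlap, where 39.8% of all tested genes did not. The sum was lowest in library 1 of both groups, as were Cpe, Pam, Scg2 and the summed leukocyte markers. Ret, a receptor of neurons and the highest of them in CPM, was at -0.88 ± 0.18, and Tubb3, neuronal tubulin, at -0.85 ± 0.25 (adjusted p = 0.0148 and 0.0497), while Nefm, a neurofilament, was at 1.41 ± 0.37 (adjusted p = 0.0342). Without 1 library these calls ended for Ret (knockout 3 or control 3, adjusted p up to 0.0659), Tubb3 (each library except control 1, up to 0.166) and Nefm (each library except control 1, up to 0.118). With all libraries, Tubb3 lost its call by limma voom (adjusted p = 0.0591) and with library size alone (0.0809), but kept it with DESeq2 (0.0289). Nefm lost its call without a count filter (adjusted p = 0.0588), kept it by limma voom (0.0346) and had no adjusted p with DESeq2. The glial factor Sox10 was detected at 0.415 to 1.06 CPM in knockout and 0.487 to 2.00 CPM in control libraries, and was picked after its values were seen. The part of neural RNA in the values of Pcsk1, Cpe and the other members was not tested.

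Fibroblast and smooth muscle markers summed to 1098, 1290 and 1449 CPM in knockout and 1010, 2030 and 2025 CPM in control libraries, also lowest in library 1 of each group. Of these 12 genes Col1a1 and Col1a2, collagen chains of fibroblasts, rose, 16.7% against 18.7% of all tested genes. They were at 0.79 ± 0.16 and 0.58 ± 0.12 (adjusted p = 0.0146 and 0.0140, and up to 0.0598 and 0.0595 without knockout 3). Myh11, smooth muscle myosin and the highest in CPM, was at -0.64 ± 0.40. DESeq2 called 3 higher and 1 lower (Des, desmin), and without control 1 the lower calls were 4, Des, Tagln, Actg2 and Vim, which were picked after their values were seen. Their part in the level of Cpe was not tested either. Of 11 leukocyte markers Trdc rose and none fell, 9.09% against 18.7% of all tested genes. The Trdc call was lost by limma voom (adjusted p = 0.0506) and without any library except knockout 2 (up to 0.125). Of 6 endothelial and 8 Paneth cell markers none was called (edgeR; 0 at an unadjusted p under 0.05 and 0 with DESeq2). All 8 tested tuft cell markers of 10 fell (median -2.19), 100% against 18.7% of all tested genes. Among them only Alox5ap lost its call with 1 library left out, without knockout 2, knockout 3, control 2 or control 3 (adjusted p up to 0.0981). Alox5ap was picked after its values were seen. Of 8 goblet cell markers Zg16 and Clca1 fell, 25% against 18.7% of all tested genes. The call of Zg16 was lost without knockout 1, knockout 3 or control 2 (adjusted p up to 0.0875). That of Clca1 was lost without knockout 1, 2 or 3 or control 3 (up to 0.104). Paneth cell markers differed widely within the groups, from 1218 to 3137 CPM in knockout and from 225 to 2409 CPM in control libraries. Control 2, the lowest, was also the control lowest in Chga, Chgb, Scg5 and Cryba2. It was not the lowest in Scg2, Scg3, Pcsk1, Pcsk1n, Cpe or Vwa5b2. Knockout 3, the knockout lowest in Paneth markers, was the lowest in Chga but not in Chgb, Scg5 or Cryba2. A link between these levels was not tested.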

How the data were processed

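Bulk RNA-seq of isolated ileal epithelial cells was analysed in 3 Ogt knockout and 3 control libraries. Per the labels' protocols, Trizol was used for RNA extraction and a NEBNext Ultra RNA kit for the libraries. The authors deposited estimated counts per gene, which are not scaled, in the same table as FPKM values, which the authors scaled for length and depth, per the file headers. The submitters' processing notes name the builds GRCm39 and mm39. No source used here gives the aligner, counting tool, annotation or FPKM lengths. All deposited counts of the 10 members were whole within 0.001 in every library. Estimated counts of all genes were rounded, and 22219 of 22274 IDs were named from GENCODE M21.

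Genes were filtered with filterByExpr (minimum count 10, minimum total 15), scaled with TMM factors and tested with edgeR 4.0.16 (quasi-likelihood, robust, R 4.3.3), Benjamini-Hochberg adjusted over 14005 genes. The SE was taken from the F statistic, and 95% intervals used the degrees of freedom of the fit. CPM, unlike the deposited FPKM, is not scaled for length. With 3 libraries a group and members of few counts, precision is low. Alternatives used DESeq2 1.42.0 and limma 3.58.1, also on log2(FPKM + 0.1) and log2(FPKM + 0.01). The members and lists were chosen with earlier results of these data known, and the promoter motifs after the values were seen. Named genes are all members, plus, per list, called genes (at most 4) and the most abundant gene; others are named as picked after their values were seen. For tuft and goblet cells and leukocytes they are given as counts or names only. No libraries of 1 group agreed within sampling noise (mean chi-square per gene at least 20.3). Figures were drawn with matplotlib 3.10.9.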

Additional observations from a re-analysis of the deposited data

How the results depend on the processing

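The number of members called was 1 in the reported fit, 0 with no count filter or with limma on log2(FPKM + 0.1) without a filter, and between 0 and 2 with 1 library left out. Pcsk1 and Cpe were the 2 called without control 1. With library size alone, or limma on log2(FPKM + 0.1) or log2(FPKM + 0.01) of genes at 1 FPKM in 3 libraries, 1 was called, but it was Chga (higher; adjusted p = 0.0477, 0.0394 and 0.0396) and not Pcsk1 (adjusted p = 0.107, 0.161 and 0.161). These settings raised the median of all genes to 0.09, 0.12 and 0.12. Without a filter Pcsk1 had an adjusted p of 0.0519, with more genes tested. Pcsk1 stayed below 0 in all 18 alternatives (log2 fold change -0.56 to -0.35) and kept its call in 8. The count over all genes ran from 1009 to 3304 when each library was left out.

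Signs changed for Scg2 and Scg3, both near 0, and for Scg5, at -0.31 in the reported fit. Scg2 was at -0.06 without knockout 2 or control 1 (-0.06 to 0.16 over all libraries left out). Scg3 was at 0.05 with library size alone, 0.07 without knockout 1 and 0.01 without control 1 (-0.24 to 0.07). Scg5 was at 0.19 without control 1 (-0.55 to 0.19). The replicate numbers share only a number in the labels. Same-numbered libraries deviated together with correlations of 0.296, 0.273 and 0.099 over tested genes, and every library correlated best with its own number. With the replicate number as a block, 2 members were called (Pcsk1, and Cpe at adjusted p = 0.00679) and 3402 genes in all. Between 7 and 17 counts per library behind Vwa5b2, and 0 to 5 behind Cryba2, limit what could be seen of those genes.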
